A study of Mus musculus with 2 samples.

Results

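The genes described here are 35 members of the type I interferon response, taken by gene symbol from the 32285 genes of the deposited tables. All 35 had a row. Their UMIs (unique molecular identifiers, each counting 1 captured RNA molecule) were summed over cell barcodes grouped by cell class and by Malat1 share, and are given as CPM, the usual scaling of UMIs to a common total per group, so that libraries of different depth can be set side by side. The tumors grew in skin from B16F10-OVALBUMIN/VEGFC, a mouse melanoma line named for ovalbumin, a model antigen, and for VEGF-C, which makes lymphatic vessels grow. An intradermal injection of 500K cells was followed by harvest on day 15, and the cells sorted from a pool of 3 tumors per genotype carried CD31 (an endothelial surface protein), lacked CD45 (a leukocyte one) and excluded DAPI. Tumors of Ifngr1iProx1 mice gave the Cre plus library and those of Ifngr1WT mice the Cre minus library. Ifngr1 encodes the receptor chain that binds interferon-γ, and the name of the Cre refers to Prox1, a factor that sets lymphatic endothelial identity. The labels used here give no Cre line, deleted exon, inducing agent, strain, age or sex. Each genotype had 1 library, so there were no replicates and no test of the genotype was possible, and 95% intervals in brackets cover counting error only.

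Type I interferons bind the receptor chains Ifnar1 and Ifnar2, whose kinases Tyk2 and Jak1 activate Stat2. With Irf9 it takes part in a complex that binds the interferon-stimulated response element, a pair of GAAA repeats, before antiviral genes. Interferon-γ uses Ifngr1 and Ifngr2 with the kinases Jak1 and Jak2, its target genes often carry another site, of the form TTCNNNGAA, and many genes answer to both pathways. Endothelial cells carry both receptors.

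The stretches before the start sites of 5 members are shown because they carry the response element and belong to genes whose values are described below. They are from RefSeq on GRCm38.p6, which mm10 corresponds to, each with the 250 bases before the annotated start, written 5′ to 3′ on the gene's strand, with matches to the response element on either strand in capitals. The motif searched was GAAA, any 2 bases and GAAA again, which reads as TTTC, any 2 bases and TTTC where it lies on the opposite strand. Matches that overlap each other merge into 1 run of capitals.
Ifit1, chr19:34640639-34640888, plus strand: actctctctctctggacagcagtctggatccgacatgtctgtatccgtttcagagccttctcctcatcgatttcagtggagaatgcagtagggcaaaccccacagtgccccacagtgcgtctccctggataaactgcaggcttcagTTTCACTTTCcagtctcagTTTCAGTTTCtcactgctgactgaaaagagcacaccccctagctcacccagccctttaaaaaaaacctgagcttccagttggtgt
Ifit3, chr19:34583279-34583528, plus strand: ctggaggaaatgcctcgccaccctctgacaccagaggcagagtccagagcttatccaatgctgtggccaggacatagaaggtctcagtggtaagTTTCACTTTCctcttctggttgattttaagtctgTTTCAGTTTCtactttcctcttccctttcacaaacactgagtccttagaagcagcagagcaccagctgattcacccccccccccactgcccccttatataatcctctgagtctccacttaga
Rsad2, chr12:26456453-26456702, minus strand: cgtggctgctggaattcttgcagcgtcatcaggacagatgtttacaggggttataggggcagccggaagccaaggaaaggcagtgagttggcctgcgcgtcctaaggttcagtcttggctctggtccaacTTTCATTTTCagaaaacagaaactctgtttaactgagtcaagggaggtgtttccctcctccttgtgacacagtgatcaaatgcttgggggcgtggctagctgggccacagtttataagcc
Isg15, chr4:156200819-156201068, minus strand: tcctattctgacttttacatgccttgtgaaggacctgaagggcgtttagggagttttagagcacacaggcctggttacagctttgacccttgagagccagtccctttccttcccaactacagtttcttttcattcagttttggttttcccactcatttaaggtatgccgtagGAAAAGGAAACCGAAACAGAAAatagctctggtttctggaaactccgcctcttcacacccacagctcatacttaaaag
Bst2, chr8:71537473-71537722, minus strand: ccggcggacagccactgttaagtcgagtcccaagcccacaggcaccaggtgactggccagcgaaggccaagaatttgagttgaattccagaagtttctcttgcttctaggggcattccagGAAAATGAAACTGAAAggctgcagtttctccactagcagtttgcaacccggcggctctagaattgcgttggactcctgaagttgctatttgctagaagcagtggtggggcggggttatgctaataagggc
Isg15 held 3 matches, Ifit1, Ifit3 and Bst2 held 2 each, and Rsad2 held 1, and the match nearest to the start ended 56 (Isg15) to 114 (Bst2) bases before it.

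Of the 35 members 27 had a promoter of 300 bases in that table, from 250 before to 50 after the start. The paired GAAA motif was found in 14 of the 27 (51.9%), against 3.99% of 27025 genes. These were Stat2, Ifih1, Ddx58, Eif2ak2, Ifit1, Ifit3, Ifit3b, Oas1a, Oas3, Rsad2, Isg15, Bst2, Ifitm2 and Ifitm3. TTCNNNGAA was found in 6 of the 27 (22.2%), against 9.55% of genes. In 2 member windows a match to one motif overlapped a match to the other. Irf7, Oasl1, Oasl2, Cmpk2 and Xaf1, which are described below with the endothelial values, had no paired GAAA in the window, which says only that these letters are not there. A match is a description of sequence and not evidence of binding. By position in GENCODE M21 on mm10, Ifit1, Ifit2, Ifit3 and Ifit3b lay together on chromosome 19, the 5 OAS-family members on chromosome 5, Rsad2 and Cmpk2 beside each other on chromosome 12 (26442746 to 26456452 and 26469204 to 26479837), and Parp9, Dtx3l and Parp14 on chromosome 16.

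The libraries held 2491 barcodes and 66704257 UMIs (Cre plus) and 2502 barcodes and 76967583 UMIs (Cre minus), of which 1782 and 1552 barcodes passed the filter, and 1 barcode sequence occurred in both. A marker gate gave lymphatic endothelial (LEC), blood endothelial (BEC) and melanoma barcodes, and each class was split into Malat1-rich (at least 0.1% of UMIs from Malat1, an RNA kept in the nucleus) and Malat1-poor barcodes. Malat1-rich LEC barcodes were 434 of 763 (56.9% [53.3, 60.4]) in the Cre plus library and 38 of 207 (18.4% [13.3, 24.3]) in the other, so every Malat1-rich LEC value of the Cre minus library rests on 38 barcodes. Their median depth was 29238 and 17751 UMIs, and that of Malat1-poor LEC barcodes 5012 and 5103. All 8 LEC markers were detected in both strata of both libraries. In Malat1-rich LEC barcodes 9 of 10 macrophage markers were detected in each library, with Adgre1 at 0, at 55.0 CPM (Cre plus) and 145 CPM (Cre minus), and T and NK markers stood at 6.64 and 14.8 CPM with Cd3d, Cd3e and Cd3g at 0. Melanoma markers in these barcodes stood at 57.5 and 103 CPM. The part of these RNAs in the results was not tested. In Malat1-rich LEC barcodes Ifngr1 stood at 32.4 CPM (Cre plus) and 86.1 CPM (Cre minus), a log2 ratio of −1.41 [−1.77, −1.02], and at 11.6 and 19.4 CPM in Malat1-poor ones. In Malat1-rich BEC barcodes it stood at 192 and 173 CPM, 0.15 [−0.02, 0.33]. A 3′ tag can lie outside the deleted part, so these values do not measure recombination.

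In Malat1-rich LEC barcodes the interferon response genes stood higher in the Cre plus library. Their summed level was 6309 CPM in Cre plus and 4355 in Cre minus, a log2 ratio of 0.53 [0.49, 0.58]. Of the 35 genes 33 had at least 50 UMIs over both libraries, 31 of these were above 0, as were 43.5% of all genes, and Herc6 and Ifi27 were below. The median of the 33 log2 ratios was 0.51, and that of all 11018 genes with as many UMIs was −0.09. Over 1.5-fold higher in Cre plus were 14 members, where 11.0% of all genes were. Over 1.5-fold lower were 0 members, where 15.3% of all genes were. Both counts depend on the filter, which all genes shared. The Cre plus barcodes held 13715129 UMIs and the Cre minus ones 813328, so genes high in Cre plus pass more readily. Of the 14, Ifit3, Ifit3b, Oasl1 and Oasl2 had under 10 Cre minus UMIs, and the intervals of Ifit3b and Dhx58 reach 0. Counting intervals lay above 0 for 17 of the 33 and below 0 for none. The same share over all genes is not given here, so these counts by interval are a description only. Leaving out the 4 members with the most UMIs (Ifitm3, Bst2, Ifi27l2a and Ifitm2) gave a sum of 2100 against 1429 CPM, 0.56 [0.47, 0.64].

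**Figure D1:**
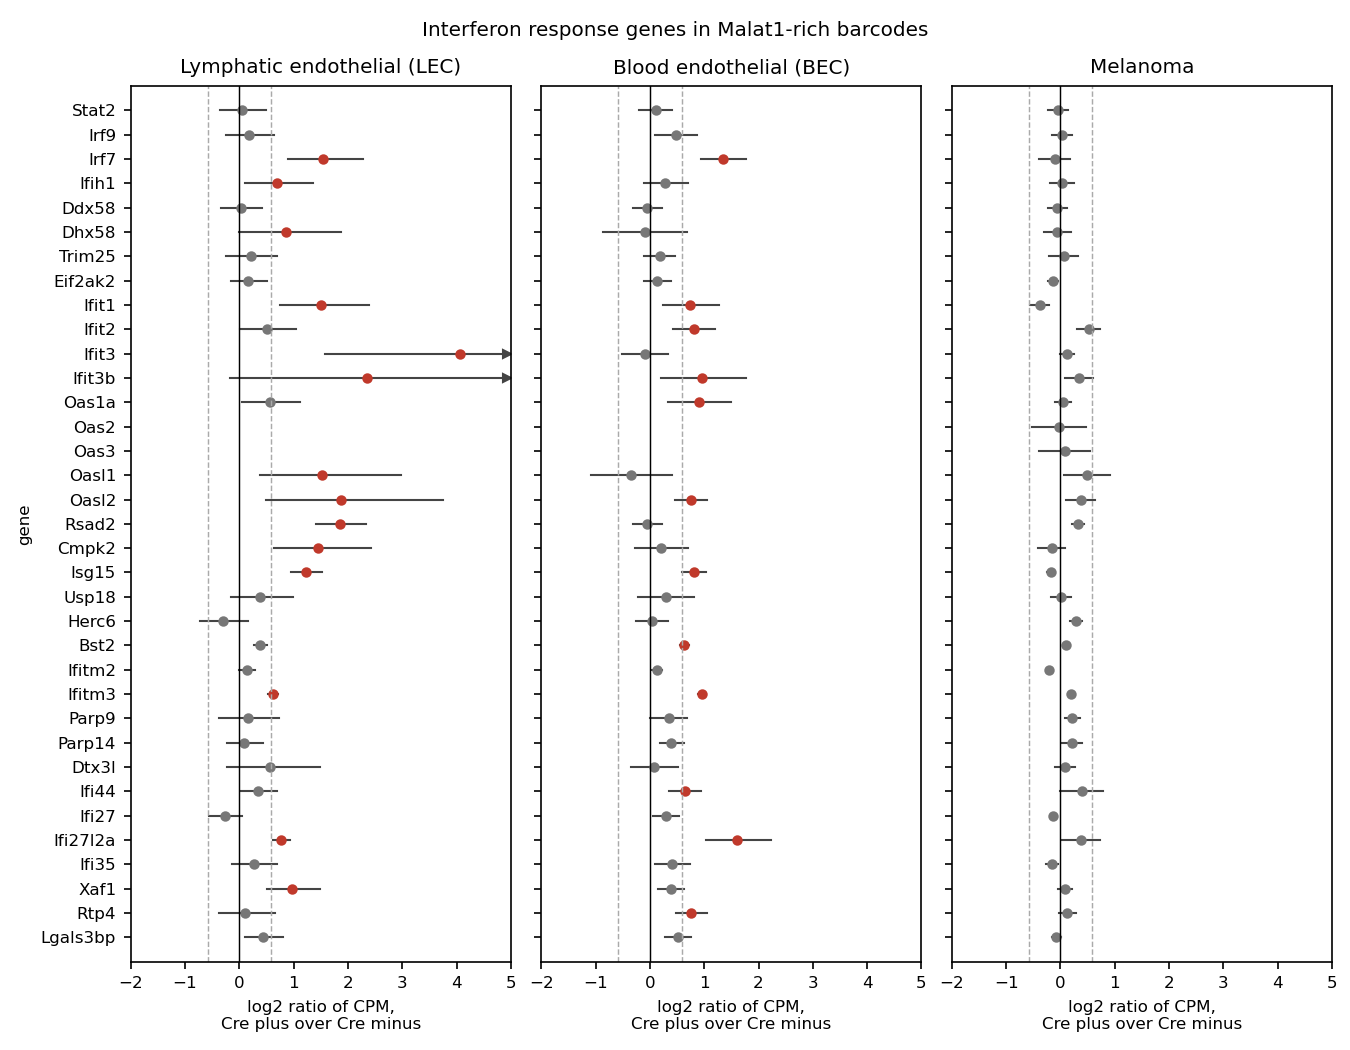
Log2 ratio of CPM, Cre plus over Cre minus, for each interferon response gene with at least 50 UMIs in Malat1-rich LEC, BEC and melanoma barcodes. Points are ratios, red where over 1.5-fold higher (dashed lines mark 1.5-fold), lines are 95% counting intervals, and arrows mark the intervals of Ifit3 and Ifit3b, which run past the axis. In LEC 14 points and in BEC 12 are red, and in melanoma none.

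Among the transcription factors, Irf7, which drives interferon-α genes, had 931 UMIs in the Cre plus and 19 in the Cre minus library, 67.9 and 23.4 CPM, a log2 ratio of 1.54 [0.89, 2.28]. Its partners in the response stood close to equal. Stat2 had 63.5 and 61.5 CPM, 0.05 [−0.36, 0.49], and Irf9 had 64.0 and 56.6 CPM, 0.18 [−0.25, 0.64]. Of the RNA sensors, Ifih1 (MDA5) stood at 45.8 and 28.3 CPM, 0.70 [0.10, 1.36], and Dhx58 (LGP2) at 24.5 and 13.5 CPM, an interval that reaches 0. Ddx58 (RIG-I) stood at 79.8 and 78.7 CPM, 0.02 [−0.34, 0.41]. Trim25, a ubiquitin ligase that acts on RIG-I, and Eif2ak2 (PKR), a kinase that halts translation on double-stranded RNA, had ratios of 0.21 and 0.17, both with intervals across 0.

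The IFIT proteins bind foreign RNA and block its translation. Ifit1 was counted 668 times in Cre plus and 14 times in Cre minus, 48.7 and 17.2 CPM, a log2 ratio of 1.501 [0.74, 2.38]. Ifit2 stood at 59.4 and 41.8 CPM, 0.51 [0.01, 1.05]. Ifit3 had 282 UMIs and 1 UMI, 20.6 and 1.23 CPM, 4.06 [1.57, 9.37], and its close copy Ifit3b had 86 and 1, so the size of both ratios is poorly fixed. The sources used here do not say how reads shared by such copies were counted, which leaves the split between Ifit3 and Ifit3b uncertain. Their direction also differed between LEC strata. In Malat1-poor LEC barcodes Ifit3 stood at −0.70 [−1.40, 0.02], and Ifit3b had 16 UMIs in each library. Over LEC barcodes of both strata together Ifit3 stood at 0.29 [−0.24, 0.87] and Ifit3b at −0.52 [−1.27, 0.32]. Of the OAS family, which activates the RNA-degrading RNase L, Oas1a stood at 58.2 and 39.3 CPM, 0.56 [0.06, 1.12], and Oas2 (11 UMIs and 1 UMI) and Oas3 (14 and 0) were too low to compare. The OAS-like genes Oasl1, with 291 and 6 UMIs, and Oasl2, with 246 and 4, had ratios of 1.52 [0.38, 2.98] and 1.87 [0.49, 3.75].

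Rsad2 encodes viperin, a radical enzyme that makes a chain-terminating nucleotide. Its UMIs numbered 2619 in the Cre plus library and 43 in the Cre minus one, 191 and 52.9 CPM, a log2 ratio of 1.85 [1.42, 2.32]. Its neighbour Cmpk2, a mitochondrial nucleotide kinase, stood at 40.5 and 14.8 CPM, 1.46 [0.64, 2.42]. Isg15, a ubiquitin-like protein that is attached to other proteins, had 3987 and 101 UMIs, 291 and 124 CPM, 1.23 [0.94, 1.53]. The enzymes around it had intervals across 0: Usp18, which removes Isg15, stood at 45.0 and 34.4 CPM, 0.39 [−0.16, 0.99], and the ligase Herc6 at 45.9 and 56.6 CPM, −0.30 [−0.73, 0.16].

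The membrane proteins Ifitm3 and Bst2 had the most UMIs of all members, and in Cre plus Ifi27l2a had more than the membrane protein Ifitm2. Ifitm3, which blocks viral membrane fusion, had 27475 and 1059 UMIs, 2003 and 1302 CPM, a log2 ratio of 0.62 [0.53, 0.71]. Bst2 (tetherin), which holds budding virus at the cell surface, stood at 886 and 677 CPM, 0.39 [0.26, 0.51], and Ifitm2 at 535 and 488 CPM, 0.13 [−0.01, 0.28]. The ADP-ribosylation group had ratios whose intervals all crossed 0, with Parp9 at 0.15, Parp14 at 0.09 and Dtx3l at 0.56. Of the remaining members, Ifi27l2a stood at 785 and 459 CPM, 0.78 [0.63, 0.93], and the pro-apoptotic Xaf1 at 92.0 and 46.7 CPM, 0.98 [0.51, 1.48]. Ifi44 at 0.35 and the secreted glycoprotein Lgals3bp at 0.44 had intervals above 0, while Ifi35 at 0.27, Rtp4 at 0.11 and Ifi27 at −0.26 did not.

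The UMIs of several members were held by few barcodes. The 10 barcodes with the most member UMIs held 73.0% of them in Cre minus, where there were 38, and 14.4% in Cre plus, and 43.9% and 22.4% in Malat1-rich BEC. Rsad2 was found in 151 of 434 Cre plus barcodes (34.8%) and in 4 of 38 Cre minus barcodes (10.5%), where 1 barcode held 32 of its 43 UMIs. In Cre plus 1 barcode held 543 of its 2619 UMIs, and the 10 highest held 54.2%. After thinning each barcode to 2000 UMIs, which left out 20 and 2 shallower ones, the shares were 13.8% [10.6, 17.5] and 2.78% [0.07, 14.5]. Isg15 was found in 70.3% and 36.8% of barcodes, and after thinning in 28.3% [24.0, 32.9] and 25% [12.1, 42.2], intervals that overlap. Of LEC, BEC and melanoma none can be taken to lack Rsad2 or Isg15, while Oas3 had 0 UMIs in BEC barcodes of both libraries. Thinned Malat1-rich melanoma barcodes had Rsad2 in 3.54% (Cre plus) and 5.41% (Cre minus). How much of this was RNA of other classes was not tested. Without the 5% of barcodes of each library with the highest member share, chosen after seeing the data, the median was 0.23, 10 of 32 measured members were over 1.5-fold higher, where 11.2% of all genes were under the same choice, and 1 was lower, where 15.5% were. Rsad2 then stood at 0.59 [0.15, 1.06], Ifit1 at 0.90 [0.11, 1.83], Isg15 at 0.83 [0.53, 1.13] and Irf7 at 1.78 [0.96, 2.74]. Ifit2 stood at −0.26 [−0.78, 0.31] and Ifit3b at −0.31 [−3.04, 5.10] under this choice, on the other side of 0 from their values over all barcodes. Over single barcodes the median summed level of the 31 members other than Ifitm3, Bst2, Ifi27l2a and Ifitm2 was 1313 CPM in Cre plus (quartiles 856 and 2460) and 696 CPM in Cre minus (506 and 1506).

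**Figure D2:**
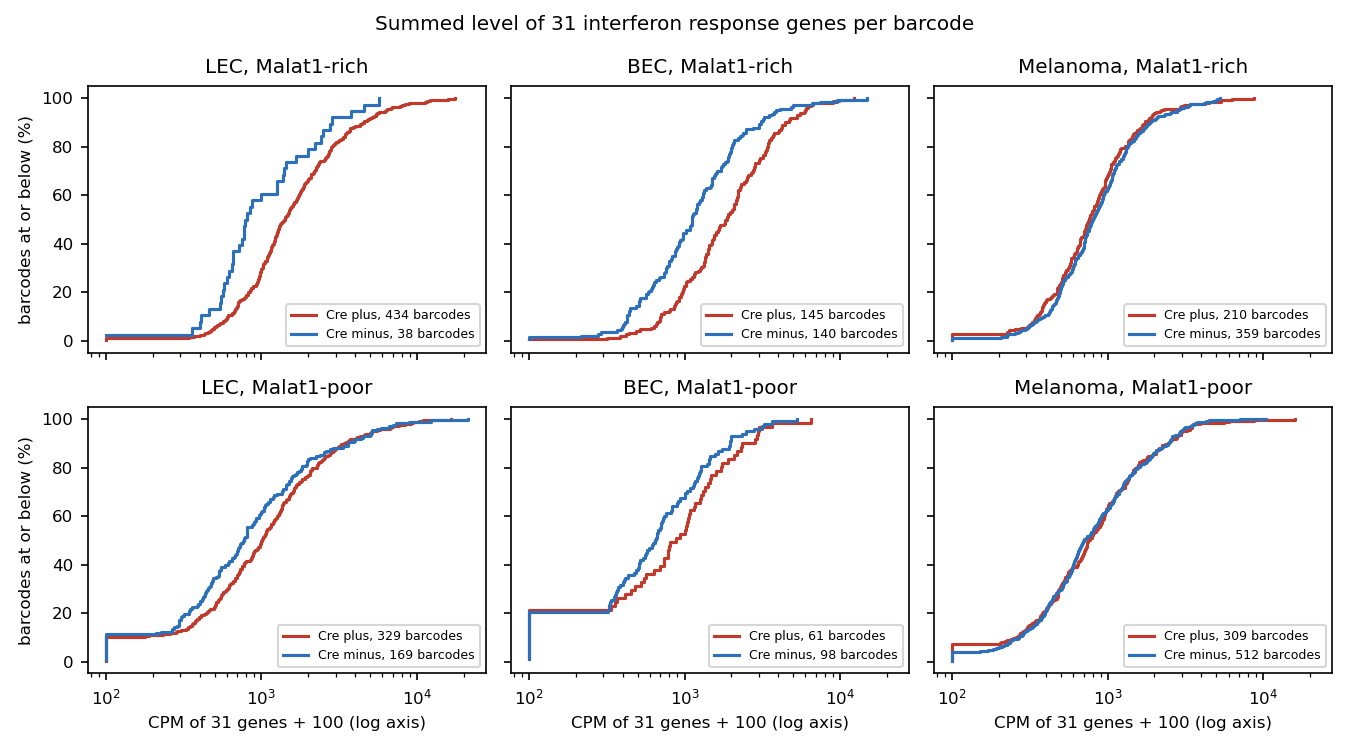
Cumulative share of barcodes (percent) against the summed CPM of 31 interferon response genes per barcode plus 100 (log axis), by class, Malat1 stratum and library. In Malat1-rich LEC and BEC barcodes the Cre plus curve lies to the right of the Cre minus curve over most of its length, with LEC medians of 1313 and 696 CPM and BEC medians of 1766 and 1022 CPM, and in melanoma barcodes the curves run close together.

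In Malat1-poor LEC barcodes, 329 (Cre plus) and 169 (Cre minus), 30 members were measured and 24 were above 0, as were 66.5% of all genes. The median log2 ratio was 0.52, where that of 5904 genes was 0.16. Over 1.5-fold higher were 12 members, where 18.5% of all genes were, and 1 member, Ifit3, was over 1.5-fold lower, where 3.13% of all genes were. The summed level was 9157 and 8037 CPM, 0.19 [0.15, 0.22], and without the 4 most abundant members 1951 and 1477 CPM, 0.40 [0.32, 0.48]. The genes over 1.5-fold higher were partly others than in Malat1-rich barcodes: of 30 members measured in both strata, Ifih1, Ifit1, Rsad2 and Ifi27l2a were over 1.5-fold higher in both. How far all genes overlap between the strata is not given here. Stat2 had 51 and 5 UMIs, 19.8 and 4.61 CPM, 2.10 [0.78, 3.78], and Irf9 stood at 44.9 and 21.2 CPM, 1.08 [0.43, 1.80], where both were close to equal in Malat1-rich barcodes. Irf7, at 138 and 118 CPM, had a ratio of 0.23 [−0.07, 0.53]. Rsad2 stood at 118 and 75.6 CPM, 0.64 [0.29, 1.01], Ifit1 at 28.3 and 8.29 CPM, 1.77 [0.77, 2.95], and Isg15 at 460.1 and 314 CPM, 0.55 [0.38, 0.73]. Intervals lay below 0 for Ifitm2 at −0.17 [−0.28, −0.06] and Ifi27 at −0.52 [−0.77, −0.28].

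**Figure D3:**
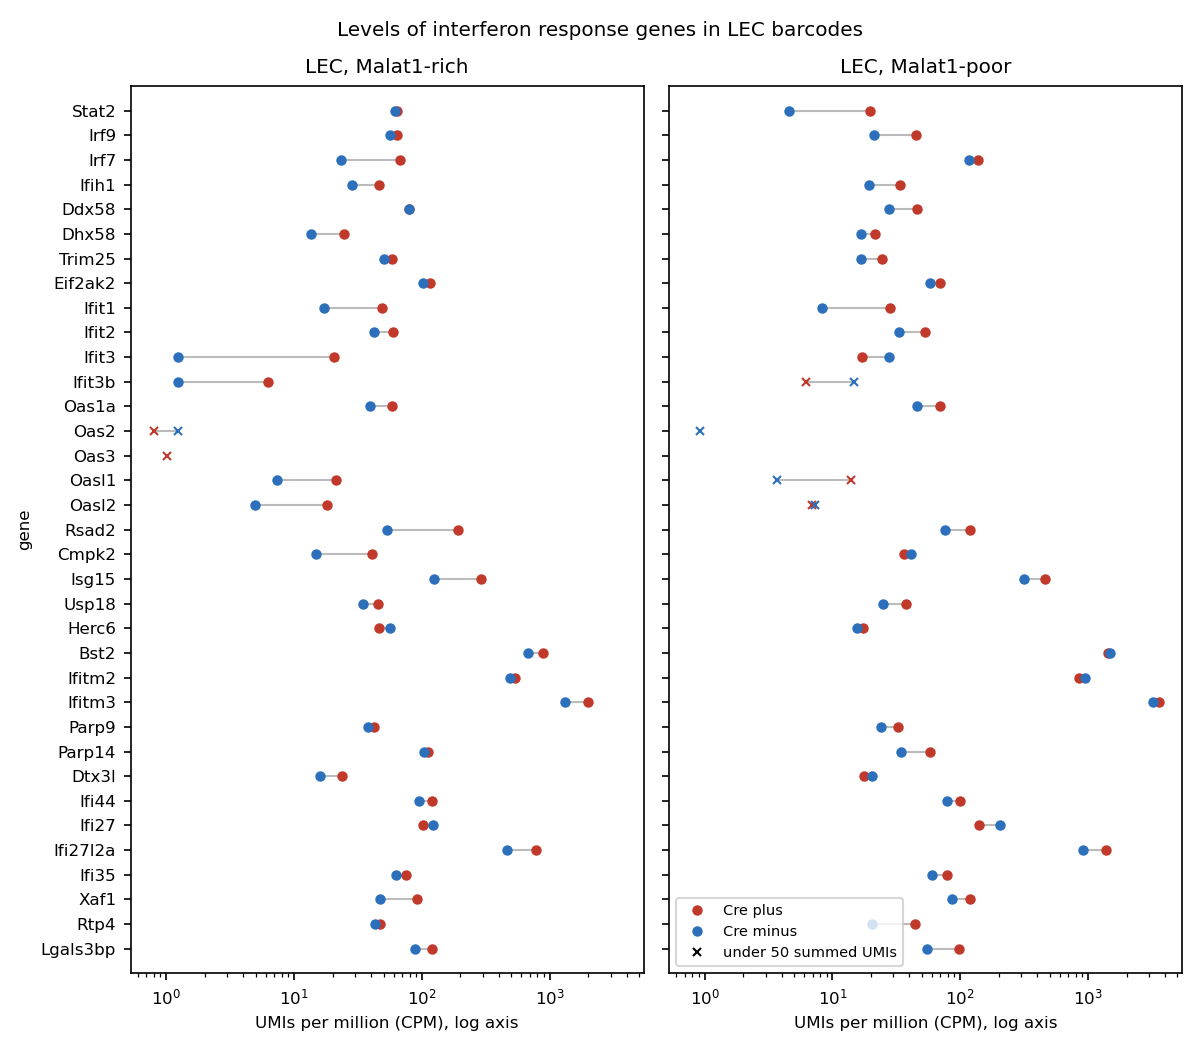
Level (CPM, log axis) of each interferon response gene in LEC barcodes of Cre plus (red) and Cre minus (blue), Malat1-rich at left and Malat1-poor at right; crosses mark genes with under 50 summed UMIs, and levels of 0 are not drawn. Red lies to the right of blue for 31 of 33 measured genes at left and 24 of 30 at right.

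Blood endothelium of the same sorts, which as a rule lacks Prox1, had a difference in the same direction. In Malat1-rich BEC barcodes, 145 (Cre plus) and 140 (Cre minus), the summed level was 4968 and 3407 CPM, a log2 ratio of 0.54 [0.51, 0.58]. Their median depth was 23672 and 13668 UMIs, all 12 BEC markers were detected in Cre plus and 11 in Cre minus, with Ackr1 at 0, and Malat1-rich barcodes were 70.4% [63.6, 76.5] and 58.8% [52.3, 65.1] of BEC. The median of 33 measured members was 0.38, and that of 9316 genes was −0.04. Over 1.5-fold higher were 12 members, where 8.20% of all genes were, and over 1.5-fold lower were 0, where 8.50% of all genes were. Of the 14 members over 1.5-fold higher in Malat1-rich LEC barcodes and these 12, 7 were the same genes: Irf7, Ifit1, Ifit3b, Oasl2, Isg15, Ifitm3 and Ifi27l2a. The matching overlap over all genes is not given here, so this count is a description only. The difference between the classes was not tested.

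Irf7 stood at 62.0 and 24.5 CPM in BEC, a log2 ratio of 1.34 [0.93, 1.76], Ifitm3 at 1376 and 710.4 CPM, 0.95 [0.88, 1.03], and Isg15 at 156 and 89.5 CPM, 0.80 [0.58, 1.03]. All 3 were also higher in Cre plus in Malat1-rich LEC barcodes. Over LEC barcodes of both strata together Isg15 stood at 0.45 [0.31, 0.59], Irf7 at 0.03 [−0.22, 0.28] and Ifitm3 at −0.09 [−0.14, −0.05]. Bst2 stood at 1032 and 664 CPM, 0.64 [0.55, 0.72], Rtp4 at 95.6 and 56.4 CPM, 0.76 [0.48, 1.05], and Oasl2 at 90.0 and 53.3 CPM, 0.76 [0.47, 1.05]. Rsad2, at 77.1 and 79.8 CPM, −0.05 [−0.31, 0.22], Cmpk2, at 0.21 [−0.27, 0.70], and Ifit3, at −0.09 [−0.51, 0.34], had intervals across 0. These values rested on few barcodes: 25 of 140 Cre minus barcodes held Rsad2, 1 of them 77 of 205 UMIs, and 73 of 145 Cre plus barcodes held it, 26 of 301 UMIs in the highest. Without the 5% of barcodes with the highest member share, chosen after seeing the data, Rsad2 stood at 60.1 and 17.9 CPM, 1.75 [1.28, 2.25], Ifit3 at 1.59 [0.80, 2.47], and 20 of 30 members were over 1.5-fold higher, where 8.74% of all genes were. Macrophage markers in Malat1-rich BEC barcodes stood at 36.9 and 26.8 CPM with Adgre1 at 0 in both, and T and NK markers at 3 UMIs and 0. In Malat1-poor BEC barcodes, 61 and 98, only 7 members were measured: their median was 0.20, and Xaf1 at 0.61 [−0.11, 1.32] and Isg15 at 0.61 [−0.05, 1.27] were the 2 over 1.5-fold higher, where 9.12% of 2357 genes were, with 0 lower, where 7.55% were.

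Melanoma barcodes come from the implanted line and do not carry the genotype of the mice. In Malat1-rich melanoma barcodes, 210 (Cre plus) and 359 (Cre minus), all 35 members were measured, at 1651 and 1669.6 CPM in sum. The median log2 ratio was 0.06, where that of 13181 genes was 0.04, and no member was over 1.5-fold higher or lower, where 2.72% and 2.61% of all genes were. The ratios ran from −0.38 [−0.56, −0.21] for Ifit1, 13.0 and 16.9 CPM, to 0.52 [0.31, 0.73] for Ifit2, 11.5 and 7.999 CPM. Isg15 stood at 83.7 and 94.7 CPM, −0.18 [−0.25, −0.11], and Rsad2 at 43.5 and 34.7 CPM, 0.33 [0.22, 0.43]. Here too few barcodes held much of the signal, with 274 of 1353 Rsad2 UMIs in 1 Cre plus barcode. Without the 5% of barcodes with the highest member share Rsad2 stood at −0.53 [−0.69, −0.38], and 4 members were over 1.5-fold lower, Ifit1, Ifit3, Ifit3b and Usp18, where 2.47% of all genes were. In Malat1-poor melanoma barcodes, 309 and 512, the median of 31 members was −0.20, where that of 10053 genes was −0.07, with 0 members over 1.5-fold higher (1.55% of all genes) and 4 lower (4.03% of all genes): Irf7, Ifit3, Usp18 and Stat2.

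Members differed in where they were expressed. In Malat1-rich barcodes their summed level in Cre plus and Cre minus was 6654 and 7889 CPM in macrophage and monocyte barcodes (30 and 43), 6309 and 4355 in LEC, 3313 and 5020.0 in pericyte and fibroblast barcodes (25 and 14), 4968 and 3407 in BEC and 1651 and 1669.6 in melanoma. LEC stood above BEC by 1.27-fold in Cre plus and 1.28-fold in Cre minus, and above melanoma by 3.82-fold and 2.61-fold. Macrophage and monocyte barcodes were highest in both libraries for 19 members, LEC for 5 (Irf9, Ddx58, Eif2ak2, Usp18 and Ifi44) and melanoma for Ifi27 alone. Among LEC, BEC and melanoma, melanoma was lowest in both libraries for 27 members. Ifi27l2a separated the endothelial classes: it stood at 785 and 459 CPM in LEC, 35.6 and 11.7 in BEC, 4.02 and 3.09 in melanoma and 1284 and 1349.6 in macrophages. LEC exceeded BEC for it by 22.0-fold in Cre plus and 39.3-fold in Cre minus. Oasl2 had the opposite order, at 17.9 and 4.92 CPM in LEC and 90.0 and 53.3 in BEC, 5.02-fold and 10.8-fold higher in BEC. Ifi44 was highest in the endothelial classes, at 121 and 94.7 CPM in LEC, 83.8 and 53.7 in BEC, 20.1 and 15.4 in macrophages, whose intervals do not meet those of BEC, and 3.12 and 2.38 in melanoma. In these Malat1-rich barcodes Irf7 did not separate LEC from BEC, at 67.9 and 62.0 CPM in Cre plus and 23.4 and 24.5 in Cre minus, while macrophages held 231 and 263 CPM. In Malat1-poor barcodes Irf7 stood at 138 and 118 CPM in LEC and at 19.5 and 17.5 in BEC, on 6 and 10 UMIs in BEC.

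**Figure D4:**
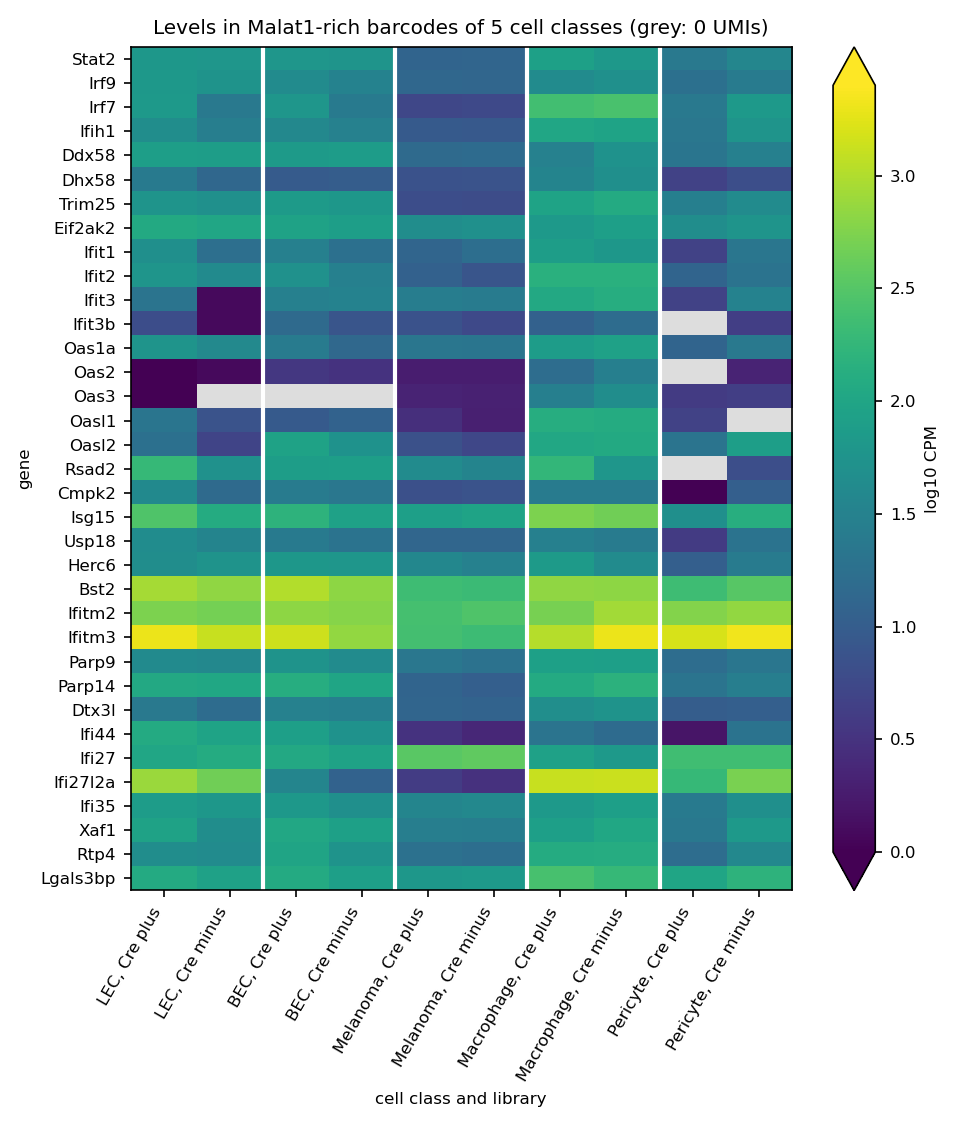
Level (log10 CPM, colour) of each interferon response gene in Malat1-rich barcodes of 5 cell classes, with Cre plus and Cre minus side by side; grey cells held 0 UMIs, and the scale ends at 0 and 3.4. Melanoma columns are the darkest of the first 3 classes for 27 genes, and Ifi27 is brightest there.

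Within LEC the members also differed by Malat1 share, in both libraries. Ifitm3, Bst2 and Irf7 stood lower in Malat1-rich than in Malat1-poor barcodes: Ifitm3 at 2003 against 3564 CPM in Cre plus and 1302 against 3219 in Cre minus, Bst2 at 886 against 1423 and 677 against 1481, and Irf7 at 67.9 against 138 and 23.4 against 118. Stat2 stood higher in Malat1-rich barcodes, at 63.5 against 19.8 CPM and 61.5 against 4.61, as did Parp14, at 112 against 58.1 and 105 against 34.1. The sum of all members was 6309 against 9157 CPM in Cre plus and 4355 against 8037 in Cre minus. The median member ratio of rich over poor was 0.27 and 0.26, where all genes had medians of 0.84 and 0.74. In BEC the member medians were 1.21 and 0.90, where all genes had 0.61 and 0.79. Over LEC barcodes of both strata together the summed level was 6761 and 6459.5 CPM, 0.07 [0.04, 0.09], and the median member ratio was 0.48, where all genes had 0.28 and 15 members were over 1.5-fold higher (23.4% of all genes) and 1 lower (2.49%). Of the most abundant members, Ifitm3 stood at −0.09 [−0.14, −0.05] there, Bst2 at −0.23 [−0.29, −0.16], Ifitm2 at −0.37 [−0.45, −0.28] and Ifi27l2a at 0.29 [0.21, 0.38].

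The rest of the pathway was read from lists that hold no member, beside shares of all genes in Malat1-rich LEC barcodes of 11.0% over 1.5-fold higher and 15.3% lower. Of 11 interferon genes none was measured: Malat1-rich LEC barcodes held 3 of their UMIs in the Cre plus and 0 in the Cre minus library, and BEC barcodes 2 and 0. Of 13 measured receptor, kinase and factor genes in Malat1-rich LEC barcodes 0 were over 1.5-fold higher and 2 were lower, Ifngr1 and Jak2, with a median of −0.16. Ifnar1 stood at 69.7 and 84.8 CPM, −0.28 [−0.64, 0.09], and Ifnar2 at 130.4 and 139 CPM, −0.09 [−0.37, 0.20]. Of 11 other sensors and adaptors 0 were higher and 3 lower (Cgas, Mavs and Ikbke), with intervals that all reach 0. Of 6 feedback genes 3 were higher (Socs3, Isg20 and Trim21) and Socs1 was lower. Of 43 other interferon-stimulated genes 6 were higher and 6 lower, with a median of 0.11. The counts of the receptor list and of the other stimulated genes lie near the shares of all genes.

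Genes that answer mainly to interferon-γ had another pattern in LEC. In Malat1-rich LEC barcodes 1 of 17 measured was over 1.5-fold higher and 9 were lower, with a median of −1.15, where 11.0% and 15.3% of all genes were. In Malat1-poor ones 0 of 9 were higher and 7 lower, with a median of −1.30, where 18.5% and 3.13% of all genes were. The chemokine Cxcl9 stood at 0.51 and 66.4 CPM in Malat1-rich LEC barcodes and the GTPase Gbp2 at 34.7 and 83.6. In Malat1-rich BEC barcodes 18 of 19 were over 1.5-fold higher, where 8.20% of all genes were, with a median of 1.02, Cxcl9 at 639 and 214 CPM and Gbp2 at 122 and 43.6. In BEC both lists had medians above 0, and in LEC the medians of the type I members and of the interferon-γ list had opposite signs. Of the 20 genes on that list Socs1 and Irf1 also stand in the feedback and factor lists.

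**Figure D5:**
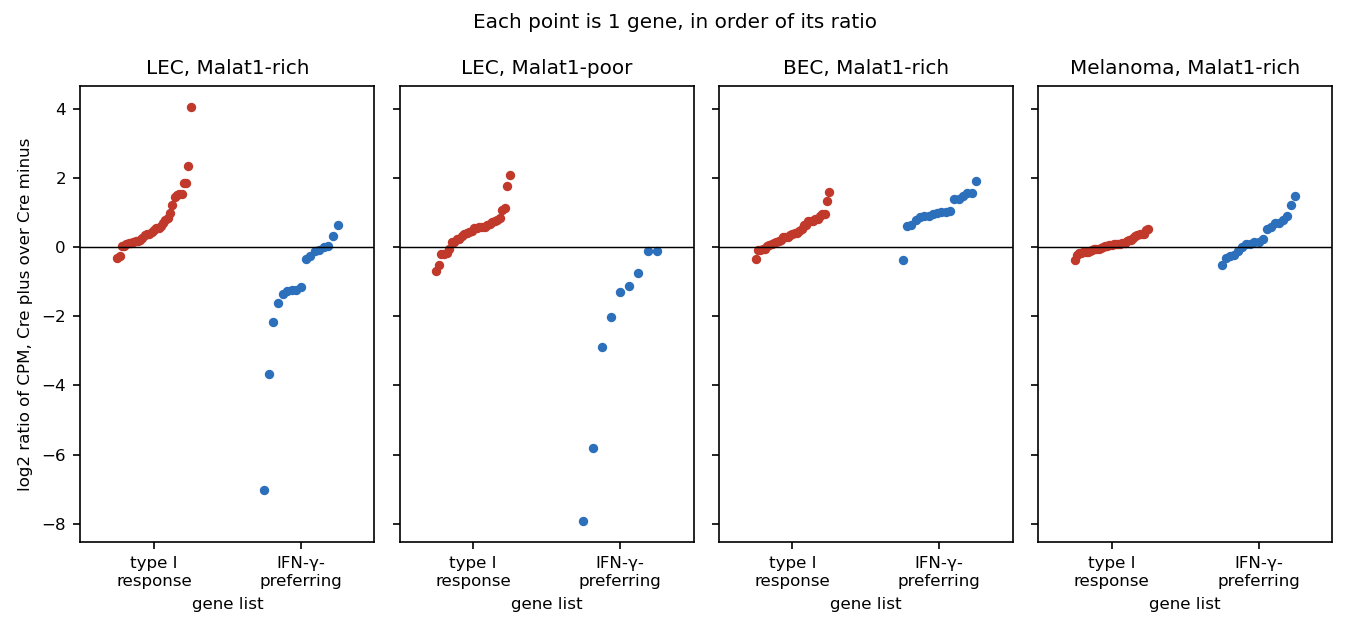
Log2 ratio of CPM, Cre plus over Cre minus, of each measured type I response gene (red) and each measured interferon-γ-preferring gene (blue) in 4 groups of barcodes; Serpina3g, with 0 UMIs in Cre minus BEC, is not drawn. Medians are 0.51 and −1.15 in Malat1-rich LEC, 0.52 and −1.30 in Malat1-poor LEC, 0.38 and 1.02 in Malat1-rich BEC, and 0.06 and 0.15 in Malat1-rich melanoma.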

How the data were processed

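Each genotype gave 1 single-cell 3′ library, and the deposited files are counts, whole UMIs for every gene and barcode. Cell Ranger 7.0.0 and mm10 are named in the submitters' processing notes, without an annotation. Kept barcodes had 500 genes or more and less than 10% of UMIs from mitochondrial genes. No doublet caller was run. A barcode joined a class when its markers held at least 0.1% of UMIs (0.3% for macrophages and for pericytes and fibroblasts) and those of other classes under 0.1%, with LEC and BEC markers over 2 times each other and pan-endothelial markers at least 0.05%, which left 12.5% and 9.99% unassigned. No member is a marker. UMIs were summed per library, class and Malat1 stratum. Log2 ratios have exact conditional binomial intervals, levels exact Poisson intervals and shares exact Clopper-Pearson intervals, all 95% and for counting error only. All members are reported, with ratios read from 50 summed UMIs. Scripts used Python 3.11.15, NumPy 2.4.6 and SciPy 1.17.1 and were tested on simulated data; edgeR 4.0.16 gave TMM factors only. Clusters for an alternative came from igraph and leidenalg. The members and lists were chosen with earlier results of these data known, and 4 listed genes had no row (Mb21d1, Sting1, Mnda and Oas1b).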

Additional observations from a re-analysis of the deposited data

Results flagged for a closer look

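Some members had counting intervals on opposite sides of 0 in an endothelial class and in melanoma barcodes, and these differences between classes were not tested. In Malat1-rich barcodes Ifit1 stood at 1.501 in LEC and 0.74 in BEC against −0.38 in melanoma, and Isg15 at 1.23 and 0.80 against −0.18. In the same stratum Ifitm2 stood at 0.13 in BEC against −0.21, Ifi27 at 0.29 against −0.13, and Ifi35 at 0.41 against −0.15. In Malat1-poor barcodes Stat2 stood at 2.10 in LEC against −0.76 in melanoma, Isg15 at 0.55 against −0.33, Xaf1 at 0.48 against −0.36 and Rtp4 at 1.12 against −0.40, and Ifi27 had the opposite order, −0.52 against 0.09. No member had such a pair between LEC and BEC, where 0 were found in either stratum. Pairs of this kind were not counted over all genes, so their numbers are a description only.

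Barcodes left out for 10% or more mitochondrial UMIs also held members. Among melanoma barcodes of this kind, 64 in Cre plus and 173 in Cre minus, the members summed to 1163 and 1012 CPM, a log2 ratio of 0.20 [0.10, 0.30]. The 12 members measured there had a median of −0.01, with 6 above 0, 1 over 1.5-fold higher and 1 lower, while the sums of the kept Malat1-rich and Malat1-poor melanoma barcodes had ratios of −0.02 and −0.07. Among 22 and 65 left-out BEC barcodes the ratio of sums was −0.01 [−0.26, 0.23], and the 3 measured members had a median of −0.70, with 2 over 1.5-fold lower. Shares of all genes in the left-out barcodes are not given here, so these counts of members are a description only.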

How the results depend on the processing

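No paired analysis was possible because each genotype had 1 library. Over 18 alternatives the median member ratio stayed above 0 in Malat1-rich LEC (0.11 to 1.08) and Malat1-poor LEC (0.17 to 0.90). It did so in Malat1-rich BEC (0.14 to 0.80) and Malat1-poor BEC (0.08 to 0.58), and lay on both sides of 0 in melanoma. After seeing the data 4 were chosen. They left out barcodes over 0.05% cycling markers, the 10 or the 5% highest barcodes, or the 4 members most abundant in LEC. In Malat1-rich LEC, leaving out the 10 barcodes with the highest member share drops 10 of 38 Cre minus barcodes but 10 of 434 Cre plus ones. This raises the Malat1-rich LEC ratio by its construction. Over the other 17 alternatives the highest median there was 0.67. No alternative reversed an endothelial median or sum. Some kept few barcodes: Malat1-rich LEC had 67 (Cre plus) and 7 (Cre minus) without immune marker UMIs and 66 and 10 without cycling marker UMIs. Malat1-rich melanoma had 10 and 26 without cycling marker UMIs. The sums moved within the same sign in 10 of 18 alternatives in Malat1-rich LEC (0.39 to 1.14), 12 in Malat1-poor LEC (0.04 to 0.40), 11 in Malat1-rich BEC (0.36 to 0.84) and 4 in Malat1-poor BEC (0.07 to 0.70). Counts of members over 1.5-fold lower moved in 3 alternatives in Malat1-rich LEC (0 to 3 members), 10 in Malat1-poor LEC (0 to 2), 2 in Malat1-rich BEC (0 to 2), 1 in Malat1-poor BEC (0 to 1), 5 in Malat1-rich melanoma (0 to 5) and 6 in Malat1-poor melanoma (0 to 8). Shares of all genes over 1.5-fold lower ran from 11.4% to 20.2% in Malat1-rich LEC and 2.60% to 6.30% in Malat1-poor LEC. In BEC they ran from 6.72% to 17.4% (Malat1-rich) and 4.52% to 9.63% (Malat1-poor). In melanoma they ran from 1.78% to 17.0% and 2.31% to 9.82%. The medians and counts of members higher that moved follow. Apart from leaving out the 10 highest barcodes in LEC, the cause was not tested.

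Bracketed percentages are shares of all genes over 1.5-fold higher under the same alternative, not given for the mean over barcodes or other UMI minimums. Members measured differed in number, so a lower count need not be a lower share. In Malat1-rich LEC the members over 1.5-fold higher were 7 after thinning to 2000 UMIs (21.3%) and 6 without barcodes with cycling marker UMIs (24.7%). They were 25 without the 10 highest barcodes (14.5%), where the median was 1.08. In Malat1-poor LEC they were 20 with a stricter gate (20.2%), 7 with TMM scaling (12.1%), 5 as a mean over barcodes and 5 thinned (6.98%). They were 4 without barcodes with immune marker UMIs (7.73%), 5 without cycling marker UMIs (8.81%) and 21 without the 10 highest barcodes (17.7%), where the median was 0.90. In Malat1-rich BEC they were 5 thinned (11.3%, median 0.73) and 4 without immune marker UMIs (9.81%). They were 20 without the 10 highest barcodes (8.73%, median 0.66) and 20 without the 5% highest (8.74%, median 0.69). The median without cycling marker UMIs was 0.80. In Malat1-poor BEC they were 1 at 1000 genes (9.54%), 1 under 5% mitochondrial UMIs (9.23%) and 0 with a stricter gate (9.51%). They were 0 at 0.05% Malat1 (9.27%), 4 at 0.2% Malat1 (7.11%, median 0.58), 1 with the other scaling (7.93%) and 0 thinned (5.96%). They were 1 without cycling marker UMIs (6.60%), 4 at a minimum of 20 UMIs, 0 at 100, and 1 without barcodes over 0.05% cycling markers (7.09%).

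In Malat1-rich melanoma they were 1 under 5% mitochondrial UMIs (2.93%), 1 as a mean and 5 without immune marker UMIs (3.65%). They were 3 without barcodes over 0.05% cycling markers (2.87%). The median without cycling marker UMIs was 0.35. In Malat1-poor melanoma they were 1 at 1000 genes (1.55%), with a stricter gate (1.52%) and at 0.05% and 0.2% Malat1 (1.63% and 2.07%). They were 4 as a mean (median 0.12), 1 thinned (2.48%, median 0.39), 2 without immune marker UMIs (2.69%, median 0.11) and 4 without cycling marker UMIs (3.81%, median 0.58). The summed melanoma ratio changed sign in the Malat1-rich stratum under 5% mitochondrial UMIs (0.035), without cycling marker UMIs (0.59) and without barcodes over 0.05% cycling markers (0.037), and in the Malat1-poor stratum with TMM (0.0034), as a mean (0.15), thinned (0.26), without immune marker UMIs (0.149) and without cycling marker UMIs (0.495).

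In the Malat1-rich LEC comparison 38 Cre minus barcodes limit the precision, and Ifit3, Ifit3b, Oasl1 and Oasl2 had under 10 UMIs there. With 1 library of pooled tumors per genotype, differences between animals, tumors and sorts cannot be told apart from genotype.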
